A study of Homo sapiens with 6 samples.

Results

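The 9 genes described here encode subunits of the transcription factor AP-1: JUN, JUNB and JUND, FOS, FOSB, FOSL1 and FOSL2, and ATF3 and BATF3. They were chosen by name, and every ATAC-seq peak with its midpoint in the RefSeq gene body or within 10 kb of it was assigned to them. Of 442008 peaks in 6 lists, 270 lay in these 9 windows, which are 9 of 19675 protein-coding genes of known strand. The study treated human cell lines with low doses of the DNA polymerase inhibitor aphidicolin (APH) and followed replication timing and chromatin accessibility. Its ATAC-seq compared RKO cells of the colon cancer line from ATCC, grown in 5% O2, treated with 0.2 µM APH for 16 h or with DMSO alone. The sample labels give a time for APH only. Each condition had 3 samples, here called DMSO 1 to 3 and APH 1 to 3, and peaks were called in each sample separately. The paper's methods say that cells were cryopreserved before the assay, and RKO is a single tumour line, so other colon cells were not measured.

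AP-1 is a dimer of basic leucine zipper (bZIP) proteins that binds the TPA response element, and JUN proteins form dimers among themselves while FOS proteins need a JUN partner. Many of these genes are immediate early genes: they are transcribed within minutes of growth factor, cytokine or stress signals through kinases that act on factors already bound at their promoters. In intestinal epithelium AP-1 acts in proliferation and in the response to RAS and WNT signals, and ATF3 and BATF3 are bZIP proteins that pair with JUN proteins.

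A gene start was counted as having a peak when a peak midpoint lay within 1 kb of it. Of the 7 epithelial markers examined, EPCAM, KRT8 and CDX2 had a start peak in all 6 samples and KRT18 in 5, while CDH1, KRT19 and VIL1 had none in any sample. The haematopoietic markers PTPRC and CD3E and the endothelial marker CDH5 had none, and PECAM1 was not among the genes with a known strand. The fibroblast markers COL1A1 and COL1A2 had a start peak in all 6 samples and PDGFRB in 1, so the peaks at starts do not follow the epithelial label alone.

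Each deposited value is the mean over a peak of a coverage signal, and the unit is called signal below. The sequencing depth of the libraries is unknown, and whether a difference in depth enters the values was not tested. A sample without a peak at a site has no value there, which is not a value of 0. The samples are the replicates. The paper speaks of independent experiments for its ATAC-seq and of biological replicates, but does not say which samples came from 1 experiment, and p-values measure only the spread between these samples.

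The 9 windows held 43, 48 and 45 peaks in DMSO and 44, 47 and 43 in APH, means of 45.3 ± 2.52 and 44.7 ± 2.08 (SD, n = 3). The ranges of these numbers overlapped, and the sign of the difference depended on the flank, being -0.67 with 10 kb and 1.67 with 20 kb. With 10 kb it was 0.67 without DMSO 2 and 0.17 without APH 3, so its sign turned without either library as well. The samples differed in their peaks over the whole genome, with means of 69190 in DMSO and 78146 in APH. The conditions overlapped, with 77194 in DMSO 2 and 70121 in APH 3. Per 10000 peaks of the sample, the windows held 6.53, 6.22 and 6.98 in DMSO and 5.51, 5.56 and 6.13 in APH. On this scale every APH sample lay below every DMSO sample. The scale divides by the number over the whole genome, so a lower value does not show fewer peaks in the windows. By class, DMSO 1 to 3 had 10, 10 and 9 start peaks and APH 1 to 3 had 8, 10 and 8. Peaks in gene bodies numbered 10, 13 and 11 in DMSO and 13, 13 and 12 in APH. Flank peaks numbered 23, 25 and 25 in DMSO and 23, 24 and 23 in APH. These are counts of peaks, not of sites, and split peaks and midpoints near a class border enter them. Among others, DMSO 1 had a second FOSL2 start peak, DMSO 2 a split BATF3 start peak and APH 2 a split JUND start peak. A JUND peak counted as body in APH 2 and as flank in the other samples. The mean value of the peaks of the 9 windows, weighted by length, was 203 ± 13.1 in DMSO and 174 ± 8.58 in APH.

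**Figure D1:**
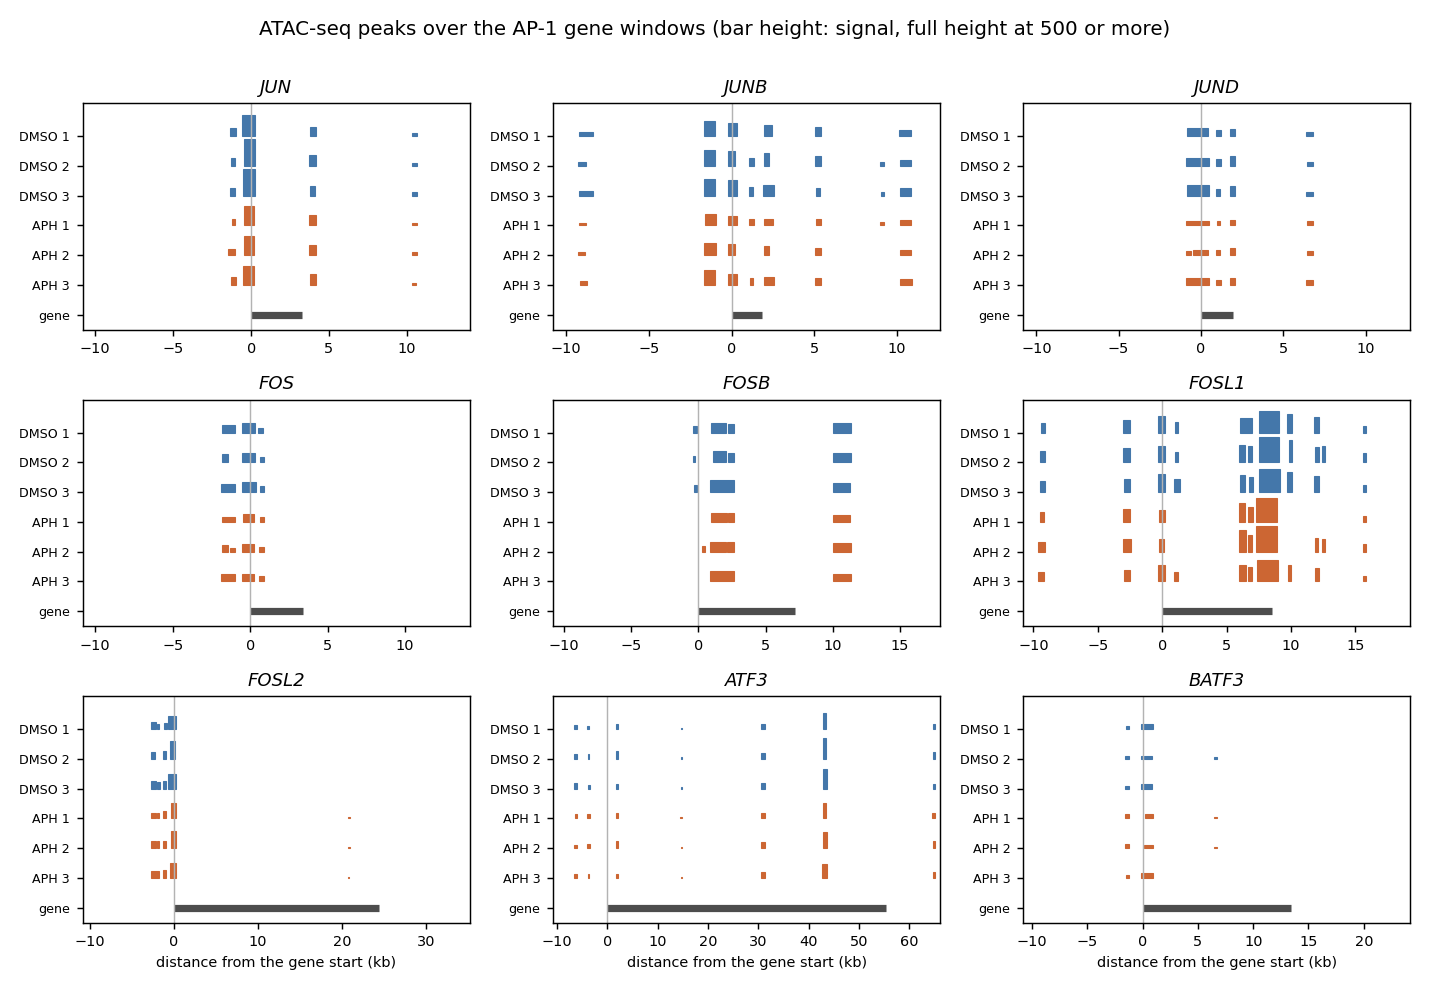
Peaks of each sample in the 9 windows by distance from the gene start in kb, with DMSO samples in blue, APH samples in orange and the gene as a grey bar drawn in the direction of transcription. Bar height is the mean signal of a peak up to a cap, which the JUN start peaks of DMSO 2 and DMSO 3 exceed. ATF3 has 7 peaks in every sample with none at its first start.

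The windows differed in how densely they held peaks. JUNB had 3.28 peaks per 10 kb of window over the 6 samples and FOSL1 also 3.28, more than 99.95% of the protein-coding genes in both cases. JUND had 1.90, JUN 1.72, FOS 1.35 and FOSB 1.23 peaks per 10 kb. The long windows of FOSL2, ATF3 and BATF3 had 0.937, 0.929 and 0.798 peaks per 10 kb, against a median of 0.486 over all genes. JUNB and FOSL1 lie among other genes, and part of their peaks lie within 1 kb of the starts of those neighbours, as given below for each.

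To set the genes beside all others, the start value was taken as the mean of the start peaks weighted by their length. Of the 9 genes, 7 had a start peak in all 6 samples and were tested, FOSB had one in 4 samples and ATF3 in 0. For ATF3 this start is not that of the canonical transcript, as given below. Over all 10813 starts tested the log2 change between DMSO and APH had a median of -0.27 as deposited, and values called centred below are relative to the median of each sample. With limma and Benjamini-Hochberg adjustment at 0.05, 261 of the 10813 starts fell (2.41%) and 0 rose (0%), while 4365 were lower and 51 higher at an unadjusted p under 0.05. The smallest adjusted p of this fit was 0.0487, close to the threshold, and the count of 261 was not kept with 1 library fewer: it became 0 without DMSO 1, 1 without DMSO 2, 1 without DMSO 3, 0 without APH 1, 0 without APH 2 and 2031 without APH 3. Without APH 3, 20 starts also rose. At an unadjusted p under 0.05, between 2284 (without APH 1) and 4630 (without APH 3) starts were lower with 1 library fewer. With each sample centred on its median, limma called 0 starts lower and 0 higher, with 286 lower and 569 higher at an unadjusted p under 0.05. Of the 7 AP-1 starts, 0 were called by limma in either direction, and 5 were lower and 0 higher at an unadjusted p under 0.05. In 4 of the 7, every APH sample lay below every DMSO sample, as in 42.2% of all starts, and in 0 every APH sample lay above, as in 0.694%. The median of the 7 changes was -0.32, or -0.05 centred, beside -0.27 and 0.00 for all starts. As deposited 6 of the 7 changes were negative and 1 positive, and with cyclic loess normalization 5 were negative and 2 positive, with 10045 negative and 768 positive over all starts as deposited and 5530 and 5283 with loess.

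**Figure D2:**
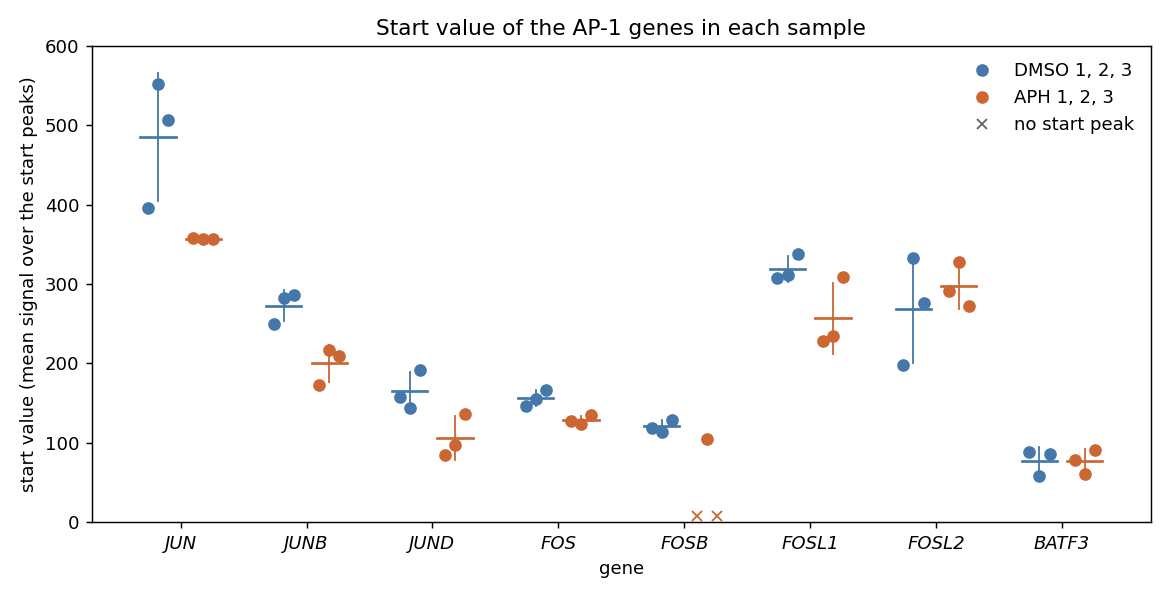
Start value (signal) of the 8 AP-1 genes with any start peak, with points for the samples, a line at the mean and a bar of 1 SD where all 3 samples have a value, and crosses for samples without a start peak. The JUN values of 357 to 358 in APH lie below all 3 DMSO values, and FOSB lacks a start peak in APH 1 and APH 3.

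The start values are means over peak length, and whether they can be compared between genes was not tested. Their order in DMSO was JUN (485 ± 80.5), FOSL1 (319 ± 16.7), JUNB (273 ± 19.7), FOSL2 (269 ± 67.8), JUND (165 ± 24.99), FOS (157 ± 10.1) and BATF3 (77.6 ± 16.8; SD, n = 3). JUNB and FOSL2 overlapped, as did JUND and FOS, and the other neighbours in this order did not. With the value multiplied by peak length in kb, the DMSO order was another: JUN (358), FOSL2 (236), JUND (219), FOS (172), FOSL1 (160.5), JUNB (136) and BATF3 (77.9). In APH the order was JUN (357 ± 0.767), FOSL2 (297 ± 28.0), FOSL1 (257 ± 44.8), JUNB (199.97 ± 23.5), FOS (128 ± 5.82), JUND (106 ± 27.5) and BATF3 (76.8 ± 15.2). Here FOSL2 and FOSL1 overlapped, as did FOS and JUND and also JUND and BATF3, and the other neighbours did not. The start of JUN was above 98.5% of all tested starts in level and that of BATF3 above 14.4%.

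Peaks of all samples that overlapped were merged into regions, 47 of which lay in the 9 windows out of 102784. Of these, 10 were start regions, 12 body regions and 25 flank regions. A peak in all 6 samples was found in 37 of them, namely 8 start, 8 body and 21 flank regions, and these were tested among 50150 regions. With limma and Benjamini-Hochberg adjustment, 0 of the 37 were called lower and 0 higher, beside 0% of all regions in each direction (0% lower and 0% higher), and the smallest adjusted p of any region was 0.290. A fit with a block for the replicate number changed these counts, as given in the last section. At an unadjusted p under 0.05, 14 of the 37 were lower and 0 higher, and 5062 and 1235 of all regions. Without DMSO 2, 2 regions of the genome were called lower. Every APH sample lay below every DMSO sample in 13 of the 37 regions, beside 14.4% of all regions, and above in 0, beside 4.21%. The log2 change was negative in 27 and positive in 10, with a median of -0.21 (all regions -0.06), but with cyclic loess normalization it was negative in 22 and positive in 15, with a median of -0.08 (all regions -0.01).

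The level of these regions bears on that comparison. When all tested regions were ranked by level and divided into 10 bins of 5015, 27 of the 37 AP-1 regions lay in the strongest 3 bins and 11 in the strongest, whose median log2 change was -0.24. Relative to the median of their own bin, 21 AP-1 regions had a lower log2 change, towards a loss in APH, and 16 a higher one, with a median difference of -0.07. That difference ran from -0.50 at the JUND start to 0.39 in the flank of BATF3. By class, the median log2 change as deposited was -0.31 for start, -0.14 for body and -0.30 for flank regions, and with loess -0.10, 0.03 and -0.08, so that the sign of the body median depended on the normalization.

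**Figure D3:**
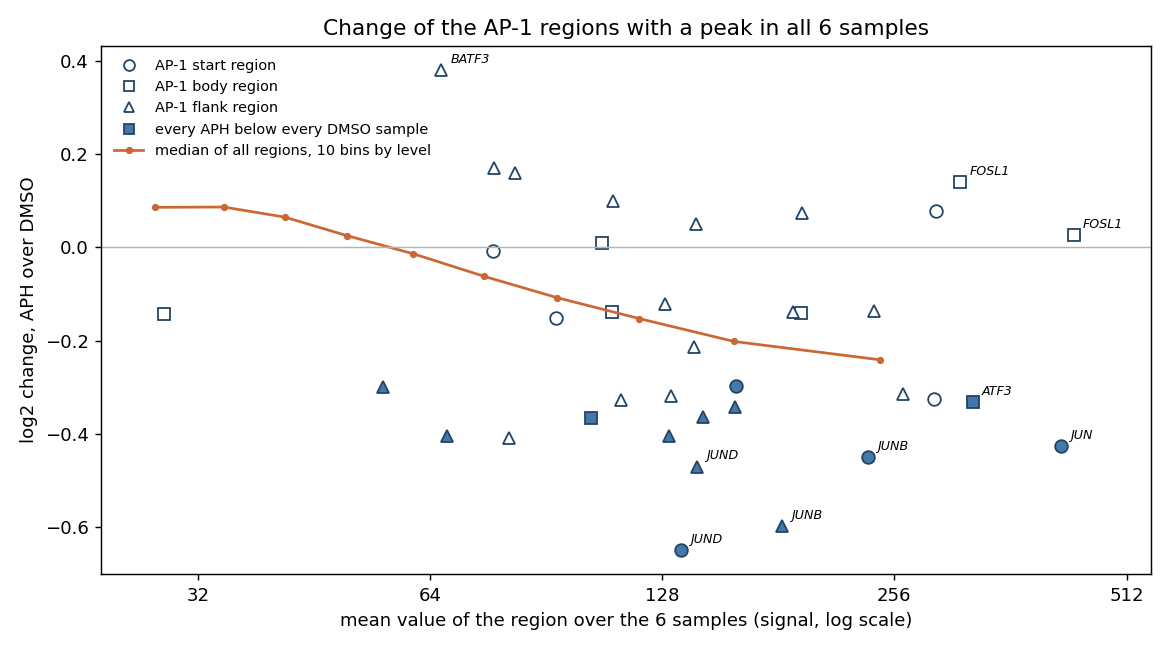
Log2 change from DMSO to APH, as deposited, of the 37 AP-1 regions against their mean signal (log scale), with circles for start, squares for body and triangles for flank regions, filled where every APH sample lies below every DMSO sample. The orange line joins the medians of 10 bins of all regions by level, from 0.09 in the weakest to -0.24 in the strongest, and 21 of the 37 regions lie below the median of their bin.

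JUN encodes the founding member of the family, whose product binds DNA as a homodimer or with FOS proteins. Its window held 4 peaks in every sample, 1 at the start and 3 in the flanks. The start value was 396, 552 and 507 in DMSO 1 to 3 and 358, 357 and 357 in APH 1 to 3. All 3 APH values lay below all 3 DMSO values, with a log2 change of -0.43, or -0.15 centred (exact permutation test, two-sided, p = 0.1). No two-sided exact test of 3 samples against 3 can go below p = 0.1. In the limma fit of all starts the Benjamini-Hochberg adjusted p was 0.069 at a log2 change of -0.43, with all 3 APH samples lower. The start region, chr1:58783798-58784610, also lies within 1 kb of the start of JUN-DT, a transcript that runs away from JUN. The strongest flank region, chr1:58779855-58780324, lies 3.96 kb into the transcribed direction, beyond the end of the gene. It had values of 178, 206 and 185 in DMSO and 197, 200 and 201 in APH, a log2 change of 0.08, and the samples overlapped. At 10.5 kb from the start the DMSO values of 58.9, 60.7 and 64.6 all lay above the APH values of 51.4, 52.9 and 45.1. The remaining flank region lies 1.24 kb before the start, within 1 kb of the start of JUN-DT, and its values of 146, 156 and 151 in DMSO overlapped the 123, 115 and 154 of APH.

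JUNB, often a weaker activator than JUN and in some settings its antagonist, has HOOK2 and PRDX2 as neighbours. Its window held 6, 8 and 8 peaks in DMSO and 8, 6 and 7 in APH, of which 1 per sample was at the start. The start region, chr19:12791282-12791828, had values of 250.2, 283 and 286 in DMSO and 173, 218 and 209 in APH. The 2 conditions did not overlap, the log2 change was -0.45, or -0.18 centred, and the adjusted p in the limma fit (Benjamini-Hochberg) was 0.052. Without APH 3 the start passed the threshold in limma, with a log2 change of -0.49 and an adjusted p of 0.040 (0.006 to 0.702 over all settings tried). This region also overlaps HOOK2 and is within 1 kb of the start of that gene. The strongest flank region, chr19:12789804-12790530, lies 1.32 kb before the start inside HOOK2. Its values were 274, 294 and 303 in DMSO and 204, 220 and 282 in APH, a log2 change of -0.31, and APH 3 overlapped the DMSO samples. The region 2.25 kb after the start, just past the end of JUNB, had 212, 246 and 202 in DMSO and 114, 171 and 155 in APH. These did not overlap, and the log2 change of -0.60 was 0.40 below the median of regions of that level. The other flank regions with a peak in all 6 samples lay 8.83 kb before the start in HOOK2, 5.23 kb after it in PRDX2 and 10.5 kb after it at the starts of PRDX2 and THSD8, with log2 changes of -0.41, -0.36 and -0.33. A body peak 1.20 kb after the start, near the start of HOOK2, was called in DMSO 2, DMSO 3, APH 1 and APH 3, with values of 148, 160, 125 and 131. One more flank region, 9.12 kb after the start in PRDX2, had a peak in DMSO 2, DMSO 3 and APH 1.

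JUND is the member with the most constant expression in many cell types and can restrain proliferation. Its window held 4 peaks in each sample except APH 2, which had 5 because its start region was split into peaks of 104 and 71.3. The start region, chr19:18281134-18282528, covers 1395 bp and also the start of the microRNA gene MIR3188. Its values were 158, 144 and 192 in DMSO and 84.4, 96.8 and 137 in APH. Every APH sample lay below every DMSO sample, and the log2 change of -0.65, or -0.38 centred, was the most negative of the 7 tested AP-1 starts. The Benjamini-Hochberg adjusted p in the limma fit was 0.052, and the exact permutation test (two-sided) gave p = 0.1. Without APH 3, the highest of the APH samples, the log2 change was -0.85 and the adjusted p in limma 0.028 (0.006 to 0.620 over all settings tried). The strongest body region, chr19:18280414-18280691, had 112, 122 and 115 in DMSO and 78.1, 97.0 and 96.1 in APH, a log2 change of -0.37 without overlap. The strongest flank region, chr19:18279525-18279850, had 136, 183 and 178 in DMSO and 106, 125 and 124 in APH, a log2 change of -0.47 without overlap. The flank region 6.60 kb from the start, within 1 kb of the start of IQCN, had 82.8, 77.6 and 73.2 in DMSO and 78.8, 87.3 and 95.5 in APH. It overlapped between conditions at a log2 change of 0.16.

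The promoters of JUN and JUND, which lie under the peaks of all 6 samples over all 300 bases, are shown from RefSeq (GRCh38.p14), 250 bases before to 50 bases after the start and read 5′ to 3′ on the minus strand, as chr1:58783998-58784297 for JUN and chr19:18281573-18281872 for JUND. Capitals mark matches, on either strand, to TGANTCA (the AP-1 element), TGACGTCA (the cAMP response element, CRE), TGACATCA (a variant known from the JUN promoter), TGACGT (the core of the CRE, contained in TGACGTCA), CCAAT (bound by the factor NF-Y), TATAAA (an element of core promoters) and GGGCGG (bound by SP1). They are shown because both starts had all 3 APH values below DMSO.
JUN: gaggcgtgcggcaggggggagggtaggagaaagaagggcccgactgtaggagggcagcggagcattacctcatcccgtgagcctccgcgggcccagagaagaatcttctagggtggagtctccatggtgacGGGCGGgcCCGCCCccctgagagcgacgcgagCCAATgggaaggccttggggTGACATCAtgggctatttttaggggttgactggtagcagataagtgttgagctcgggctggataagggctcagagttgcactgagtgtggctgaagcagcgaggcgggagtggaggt
JUND: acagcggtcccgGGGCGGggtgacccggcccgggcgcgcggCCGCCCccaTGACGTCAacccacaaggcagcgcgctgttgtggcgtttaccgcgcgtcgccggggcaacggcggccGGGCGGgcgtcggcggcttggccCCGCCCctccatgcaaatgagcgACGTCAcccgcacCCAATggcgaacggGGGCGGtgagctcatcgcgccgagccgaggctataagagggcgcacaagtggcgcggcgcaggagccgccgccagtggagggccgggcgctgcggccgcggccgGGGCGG
Of 35116 promoters of this length, 7.71% hold TGANTCA, 1.85% TGACGTCA, 2.61% TGACATCA, 7.98% TGACGT, 34.6% CCAAT, 11.5% TATAAA and 45.0% GGGCGG. JUN has TGACATCA with its first base at -67 and CCAAT at -87, where 0 is the start base. JUND has TGACGTCA at -200, a further TGACGT at -87, CCAAT at -74 and 6 matches to GGGCGG. A match is a description of the letters only. The promoter of JUNB, covered by peaks over 245 to 254 bases, has CCAAT at -67 and TATAAA at -31.

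FOS is the classical immediate early gene of the family, and its product binds DNA only with a partner. Its window held 3 peaks in all samples but APH 2, which had 4, since its flank peak before the start was split. All samples had 2 start peaks and none in the rest of the gene body. The region over the start, chr14:75278326-75279200, had values of 174, 171 and 183 in DMSO and 139, 141 and 149 in APH. The conditions did not overlap, at a log2 change of -0.30. A weaker region 696 bp into the gene had 79.3, 99.8 and 116 in DMSO and 85.0, 78.7 and 100.3 in APH, which overlapped at a log2 change of -0.15. Together they gave FOS start values of 147, 156 and 167 in DMSO and 127, 123 and 135 in APH. This log2 change of -0.28 was -0.01 when centred, so the start of FOS lay at the median of all starts (limma, Benjamini-Hochberg adjusted p = 0.090 as deposited, all 3 APH samples lower). The strongest flank region, chr14:75276955-75277866, lies 1.42 kb before the start. It had 135, 163 and 149 in DMSO and 99.96, 104 and 134 in APH, without overlap, at a log2 change of -0.40.

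FOSB has a longer and a shorter protein form, the latter known from long-lasting stimulation, and had a region before its start that was called in DMSO alone. This region, chr19:45467580-45467923, centred 245 bp before the start, had values of 119, 114 and 129 in DMSO and no peak in any APH sample. Of 102784 merged regions, 189 (0.184%) had a peak in all 3 DMSO samples and in no APH sample, and 1 of them lies in an AP-1 window. Their median value was 27.4, and 4 of the 189 had a higher mean than the FOSB region with 121. In APH 2 a separate peak of 105 lay 412 bp after the start, 378 bp from the region, and in APH 1 and APH 3 the nearest peaks were 1044 and 950 bp away. Without values in APH no fold change can be given, and the start could not be tested in the fit. The strongest body region, chr19:45468869-45470653, had values in all samples, 179.7, 196 and 234 in DMSO and 169, 181 and 201 in APH. These overlapped, and the log2 change was -0.14 as deposited but 0.07 with loess. The flank region chr19:45477995-45479312, 10.7 kb after the start, contains the transfer RNA gene TRU-TCA1-1. Its values of 182, 177 and 174 in DMSO lay above the 131, 155 and 135 of APH, a log2 change of -0.34. The window held 4, 4 and 3 peaks in DMSO and 3, 4 and 2 in APH (exact permutation test, two-sided, p = 0.7).

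The promoters of FOS (chr14:75278578-75278877) and FOSB (chr19:45467746-45468045) are on the plus strand and are shown, with the same capitals, because a peak covers all of the first in every sample and part of the second in DMSO samples only. Peaks covered 178, 39 and 147 of the 300 bases of the FOSB promoter in DMSO 1 to 3 and 0 in each APH sample.
FOS: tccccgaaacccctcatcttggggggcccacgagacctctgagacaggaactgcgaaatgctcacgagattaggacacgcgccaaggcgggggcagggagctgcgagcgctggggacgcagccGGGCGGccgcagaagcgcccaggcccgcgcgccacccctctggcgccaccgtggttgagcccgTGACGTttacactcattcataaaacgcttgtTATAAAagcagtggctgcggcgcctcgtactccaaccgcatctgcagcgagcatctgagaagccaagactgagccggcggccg
FOSB: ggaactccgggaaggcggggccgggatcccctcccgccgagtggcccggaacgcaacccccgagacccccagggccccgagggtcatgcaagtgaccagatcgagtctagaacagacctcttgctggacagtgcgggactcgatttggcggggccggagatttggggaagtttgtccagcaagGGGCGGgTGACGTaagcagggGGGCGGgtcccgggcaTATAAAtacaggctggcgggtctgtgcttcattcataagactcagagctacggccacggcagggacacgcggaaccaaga
Both have a TGACGT, at -64 in FOS and -60 in FOSB, followed by a TATAAA at -33 and -30. FOSB also has GGGCGG at -67 and -46 and FOS at -127.

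FOSL1 encodes FRA-1, which lacks the transactivation domain of FOS and is known from RAS-driven and invasive tumour cells. Its window held the most peaks on average over the 6 samples, with 9, 11 and 10 in DMSO and 7, 9 and 10 in APH (exact permutation test, two-sided, p = 0.5). In APH 1 the JUNB window held more, 8 against 7. The start region, chr11:65900296-65900846, had values of 308, 311 and 338.5 in DMSO and 228, 234 and 308.5 in APH. APH 3 reached the lowest DMSO sample, so the conditions overlapped, and the log2 change was -0.32, or -0.05 centred. The adjusted p in limma was 0.099 with all samples, and without APH 3 it was 0.038 (0.014 to 0.952 over all settings tried) at a log2 change of -0.46. The strongest body region of any AP-1 gene with a peak in all 6 samples was chr11:65891378-65893231, 8.24 kb after the start at the end of FOSL1, where it also overlaps CCDC85B. Its values were 403, 470 and 426 in DMSO and 450, 480 and 394.5 in APH. The conditions overlapped at a log2 change of 0.03, which was 0.27 above the median of regions of that level. A second body region, 6.53 kb after the start, had 265, 320 and 303 in DMSO and 318, 368 and 295 in APH, a log2 change of 0.14 with overlap. In its level bin, 98.3% of regions had a lower log2 change.

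Around FOSL1 several peaks were called in some samples alone. A body peak 1.13 kb after the start had values of 200, 190 and 252 in DMSO and was called in APH 3 with 179. The flank region at the start of CCDC85B, 9.88 kb after the FOSL1 start, had 343, 419 and 384 in DMSO and 301 in APH 3. The region at the start of FIBP, 12.01 kb away, had 298, 290 and 311 in DMSO and 249.8 and 247 in APH 2 and APH 3. A further one near that start, 12.5 kb away, was called in DMSO 2 and APH 2, with 307 and 229.7. The strongest flank region with a peak in all 6 samples, chr11:65902970-65903586, lies 2.73 kb before the start. It had 227, 274 and 255 in DMSO and 239, 239 and 209.5 in APH, with overlap, at a log2 change of -0.14 as deposited and 0.09 with loess. The region 9.38 kb before the start likewise had -0.14 as deposited and 0.07 with loess, and the one 15.7 kb after it -0.32 and -0.16.

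FOSL2 encodes FRA-2, a partner of JUN proteins that is known from bone and epithelial cells. Its window held 4, 3 and 4 peaks in DMSO and 5, 5 and 4 in APH (exact permutation test, two-sided, p = 0.3). The start values were 198, 333 and 276 in DMSO and 291, 328 and 273 in APH. The conditions overlapped, with a log2 change of 0.17, or 0.45 centred, the only positive change among the 7 starts as deposited (limma, Benjamini-Hochberg adjusted p = 0.422, 0 of 3 APH samples above all DMSO samples). In DMSO 1 a second peak of 115, centred at -974 bp from the start, was averaged with the main peak of 241. In the other samples the midpoint of the peak at this site lay beyond 1 kb, so that it counted as a flank peak. The change was 0.08 with starts taken within 0.5 kb or with the highest start peak, both of which leave that peak out, and 17 of 20 settings kept the positive sign. Without DMSO 1 the change was -0.03, with starts taken within 2 kb it was -0.03, and with the value multiplied by peak length it was -0.56. In this last setting FOSL2 passed the threshold in limma, opposite to its sign as deposited, with an adjusted p of 0.023 (0.023 to 0.892 over all settings tried), and the covered length of its start peaks was 0.934 ± 0.327 kb for DMSO against 0.545 ± 0.0843 kb for APH. The start region itself, chr2:28392235-28393102, had 241, 333 and 276 in DMSO and 291, 328 and 273 in APH, a log2 change of 0.08 and 0.32 above the median of its level bin. This region and the 2 flank regions overlap the antisense gene FOSL2-AS1. The stronger flank region, chr2:28391542-28392106, had 115, 153 and 151 in DMSO and 135, 142 and 154 in APH, a log2 change of 0.05 with overlap. The other, 2.22 kb before the start, had 131, 133 and 139 in DMSO and 108, 135 and 129 in APH, a log2 change of -0.12 that was 0.04 with loess.

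A weak region in the body of FOSL2, chr2:28413553-28413857, lies 20.8 kb after the start. It had values of 24.2, 23.0 and 18.7 in APH and no peak in any DMSO sample. Of all merged regions, 1136 (1.11%) had a peak in all 3 APH samples and in no DMSO sample, and 1 of them lies in an AP-1 window. The median value of the 1136 was 25.8, and 957 of them had a higher mean than the 22.0 of the FOSL2 region.

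The FOSL2 promoter, chr2:28392608-28392907 on the plus strand, lies under peaks over all 300 bases in every sample. It is shown because it alone among the 7 AP-1 promoters in the table, all but those of FOSL1 and BATF3, holds an AP-1 element.
FOSL2: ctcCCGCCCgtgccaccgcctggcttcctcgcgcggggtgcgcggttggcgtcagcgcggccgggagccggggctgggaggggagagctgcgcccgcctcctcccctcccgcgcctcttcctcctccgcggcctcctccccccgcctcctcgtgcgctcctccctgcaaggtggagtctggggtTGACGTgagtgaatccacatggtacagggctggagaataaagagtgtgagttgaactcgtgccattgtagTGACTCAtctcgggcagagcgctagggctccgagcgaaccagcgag
The element TGACTCA begins 4 bases after the start base, and a TGACGT begins at -66.

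ATF3 encodes a stress-induced bZIP protein that can repress as a homodimer and pair with JUN proteins. Its window held 7 peaks in every sample, 4 in the body and 3 in the flanks, and none at the RefSeq start. The strongest region, chr1:212608113-212608977, lies 43.1 kb into the gene. In GENCODE the canonical transcript ATF3-202 begins 43.4 kb after the first start of the gene, as a distance within the annotation of the older build GRCh37. The values of this region were 311, 397 and 375 in DMSO and 290.0, 308 and 260 in APH. Every APH sample lay below every DMSO sample, at a log2 change of -0.33, or -0.08 with loess, and -0.09 relative to regions of its level. The body region 1.87 kb after the RefSeq start had 95.5, 157 and 95.3 in DMSO and 104, 132 and 77.4 in APH, with overlap at a log2 change of -0.14. The region at 30.9 kb had 102, 109 and 109 in DMSO and 100, 117 and 106 in APH, a log2 change of 0.01. At 14.7 kb the weakest region had 26.7, 44.2 and 22.3 in DMSO and 28.5, 25.1 and 27.0 in APH, with DMSO 2 the highest. The strongest flank region, chr1:212630013-212630552, lies 64.9 kb from the start in LINC02773, with 103, 128 and 90.1 in DMSO and 103, 130 and 109 in APH. The 2 flank regions before the start, at 6.36 and 3.74 kb, had log2 changes of -0.41 and 0.17, and in both the conditions overlapped.

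The promoter at the RefSeq start of ATF3, chr1:212565157-212565456 on the plus strand, has 0 bases under peaks in each of the 6 samples and is shown for contrast with the covered promoters of JUN and FOS. It is not the promoter of the canonical transcript ATF3-202. That transcript begins 43.4 kb further on, near the strongest ATF3 region, which had a peak in all 6 samples.
ATF3: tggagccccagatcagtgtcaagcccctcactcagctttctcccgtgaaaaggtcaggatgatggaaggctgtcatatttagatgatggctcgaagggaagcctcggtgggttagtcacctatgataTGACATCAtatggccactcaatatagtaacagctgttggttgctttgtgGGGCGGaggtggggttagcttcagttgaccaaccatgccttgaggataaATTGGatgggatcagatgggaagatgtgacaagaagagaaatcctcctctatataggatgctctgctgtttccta
This promoter at the RefSeq start has TGACATCA at -123, the same 8 letters as in JUN, GGGCGG at -74 and ATTGG, which is CCAAT on the other strand, at -25. Its GC content is 48.0%, against 62.0% in JUN, 77.0% in JUND and a median of 58.7% over all promoters.

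BATF3, a bZIP protein without a transactivation domain of its own, is known from dendritic cells and lies near ATF3 on the same chromosome. Its window held 2, 4 and 2 peaks in DMSO and 3, 3 and 2 in APH. The start region, chr1:212698932-212699995, had the lowest values of the 7 tested AP-1 starts, 88.0, 58.2 and 86.5 in DMSO and 78.1, 61.0 and 91.4 in APH. Replicate 2 was the lowest in both conditions, the samples overlapped, and the log2 change was -0.01 as deposited but 0.26 centred and 0.23 with loess (limma, Benjamini-Hochberg adjusted p = 0.976, 1 of 3 APH samples above all DMSO samples). Its sign also turned without DMSO 1 (0.09), without DMSO 3 (0.08) and without APH 2 (0.15). The flank region chr1:212701034-212701439, 1.40 kb before the start, had 52.4, 63.1 and 56.0 in DMSO and 80.5, 83.3 and 61.7 in APH. APH 3 lay among the DMSO samples, and the log2 change of 0.38 was the largest positive one of the 37 AP-1 regions (limma, Benjamini-Hochberg adjusted p = 0.442, 2 of 3 APH samples above all DMSO samples). A weak body peak 6.62 kb after the start was called in DMSO 2 (27.4), APH 1 (21.6) and APH 2 (22.5).

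Over whole windows, the mean value of the peaks is weighted by length and rests on the peaks called in each sample, whose number and length differ. For comparison, the unweighted mean over all peaks of a sample was 82.2 ± 3.55 for DMSO against 71.2 ± 1.79 for APH, with no overlap between conditions (two-sided exact permutation test, p = 0.1). The window of JUN had 283 ± 36.6 in DMSO and 221 ± 12.4 in APH, that of JUNB 179 ± 4.51 and 147 ± 19.9 and that of JUND 145 ± 15.3 and 103 ± 19.2 (exact p = 0.1 in each). FOS had 153 ± 9.62 in DMSO and 121 ± 11.4 in APH, and FOSB 186 ± 14.7 and 163 ± 10.6 (exact p = 0.1 in both). In these windows the APH values lay below the DMSO values, as they did for the mean over all peaks. FOSL2 had 196 ± 25.3 and 159 ± 12.5 without overlap (exact p = 0.1), but over different peaks: the APH samples include the weak body peak that DMSO lacks, and their start peaks cover less. The 3 FOSL2 regions with a peak in all 6 samples had log2 changes of 0.08, 0.05 and -0.12. The conditions overlapped at FOSL1 with 323 ± 22.4 and 316 ± 23.6 (exact p = 0.6), at ATF3 with 148 ± 18.0 and 129 ± 9.003 (exact p = 0.2) and at BATF3 with 71.2 ± 15.4 and 71.1 ± 12.5 (exact p = 1).

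Genes that act with AP-1 were compared through the same fit of gene starts, and in each of 4 lists limma called 0 starts lower and 0 higher. With a block for the replicate number some were called, as given in the last section. Over all 10813 starts, 40.4% were lower and 0.472% higher at an unadjusted p under 0.05, and 92.9% of the changes were negative as deposited. Of 18 other bZIP genes 14 were tested, 12 with negative and 2 with positive changes as deposited and 8 and 6 with loess, and 9 (64.3%, all starts 40.4%) were lower and 0 higher at an unadjusted p under 0.05. Of these, the small MAF protein gene MAFF had values of 155, 181 and 171 in DMSO and 116, 116 and 131 in APH, a log2 change of -0.48, or -0.21 centred. MAFA had a change of -0.44 (-0.17 centred). BATF2 and JDP2, which encodes a JUN dimerization protein, had changes of 0.01 and 0.00 (0.28 centred in both). The median of the list was -0.31, or -0.03 centred.

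The next list held 18 genes, for kinases upstream of AP-1, for ETS and SRF factors and for CREB1, and 13 were tested. All 13 changes were negative as deposited (all starts 92.9%) and 9 of 13 with loess. At an unadjusted p under 0.05, 8 (61.5%, all starts 40.4%) were lower and 0 higher. MAP2K7, a kinase that activates JNK, had values of 199, 237 and 192 in DMSO and 152, 145 and 155 in APH, a log2 change of -0.47, or -0.19 centred. MAPK8, which encodes JNK1, had a change of -0.43 (-0.16 centred). In both genes the conditions did not overlap. The median of the list was -0.34, or -0.07 centred.

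Of 20 other immediate early genes, 17 were tested, and 7 (41.2%, all starts 40.4%) were lower and 0 higher at an unadjusted p under 0.05. KLF6 had values of 215, 211 and 255 in DMSO and 180, 152 and 162 in APH, a log2 change of -0.46, or -0.19 centred. EGR3 had a change of -0.40 (-0.13 centred), and CCN2, with 0.04 (0.32 centred), was the only one of the 17 with a positive change as deposited, while 9 were negative and 8 positive with loess. The median was -0.27, or 0.01 centred, so this list lay at the median of all starts.

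Of 20 known AP-1 target genes, 13 were tested, 10 with negative and 3 with positive changes as deposited but 3 and 10 with loess. At an unadjusted p under 0.05, 2 (15.4%, all starts 40.4%) were lower and 0 higher. These were HMOX1 with a log2 change of -0.39 (-0.12 centred) and PLAUR with -0.34 (-0.07 centred). The largest positive changes among the named targets were those of the matrix metalloproteinase gene MMP10 (0.33, or 0.60 centred) and IL6 (0.28, or 0.56 centred). MMP10 had values of 74.3, 107 and 83.8 in DMSO and 114, 135 and 85.5 in APH, with APH 1 and APH 2 above all DMSO samples. IL6 had 41.0, 64.4 and 33.4 in DMSO and 57.4, 48.9 and 57.5 in APH, and its samples overlapped. The median of the list was -0.20, or 0.08 centred, beside -0.05 centred for the AP-1 genes, and no difference between lists was tested.

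**Figure D4:**
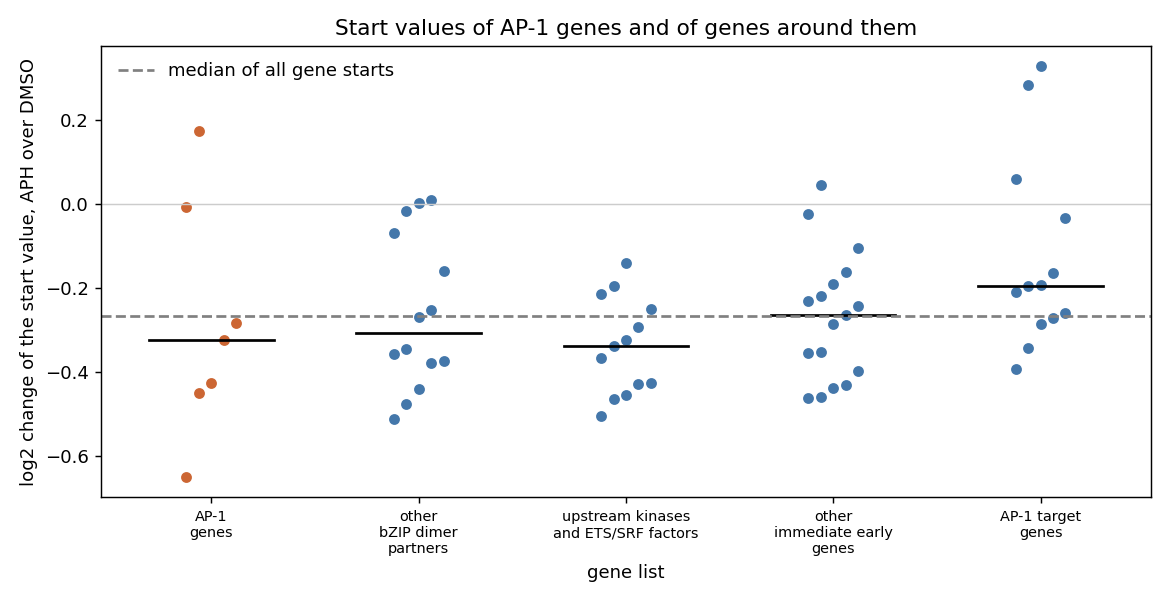
Log2 change of the start value from DMSO to APH, as deposited, for each tested gene of the AP-1 list (orange) and of 4 lists around it (blue), with black lines at the list medians. The dashed line is the median of all starts, -0.27, and the medians of the lists lie between -0.34 and -0.20.

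The genes whose start values over the 6 samples were most like the mean profile of the 7 tested AP-1 starts were SAP130 (Pearson r = 0.998), TNFRSF10A (0.996) and CHD1L (0.995). This is a description over 6 samples among 10806 genes. The values of a sample share 1 library and its depth: the median r of all genes was 0.717, and 14.8% of genes were above 0.9.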

How the data were processed

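The authors deposited 1 peak list per sample, in which the unit of the value is signal, the mean of a coverage map over the peak. Their reads were aligned with BWA 0.7.12 to hg38, as the submitters' processing notes say, and peaks were called with MACS2 2.1.0. Gene bodies and starts came from RefSeq for GRCh38.p14, and strands from its promoter table or, for FOSL1 and BATF3, from GENCODE by symbol. The reference genome is of another build and was not read by coordinates.

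Regions are unions of peaks sharing 1 bp or more, each with the length-weighted mean of its peaks. Regions and gene starts with a peak in all 6 samples were compared with limma on log2(value + 1) with an intensity trend and Benjamini-Hochberg adjustment over all of them. The fit was also tested on simulated data.

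The members and lists were chosen with earlier results of these data known. By the rule for named genes, all 9 members are named with the region of highest mean value in each class, regions past an adjusted p of 0.05 and regions in 1 condition alone. A body or flank peak within 1 kb of another gene's start is given with that gene. The rule further names the 2 genes of smallest p in each direction of each list, and the 3 genes of highest correlation. Other regions named were chosen after their values were seen. The fits ran in limma 3.58.1 under R 4.3.3, and all else in Python 3.11.15 (matplotlib 3.10.9, scipy 1.17.1, pandas 2.3.3 and numpy 2.4.6).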

Additional observations from a re-analysis of the deposited data

How the results depend on the processing

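Of the starts, 261 were called lower by limma at an adjusted p of 0.05 and 0 higher. With each sample centred on its median, with quantile normalization, cyclic loess, no intensity trend, starts within 0.5 kb or the highest start peak, 0 were lower. Starts at or above the median level gave 1111 lower and 1 higher, starts within 2 kb 767 and 8, and value times length 2971 and 12. Leaving out 1 library gave 0 to 2031 lower and 0 to 20 higher. Of the regions, 1 was lower with centring, and 0 to 2 without 1 library. The causes were not tested.

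With value times length JUN (-0.56), JUNB (-0.50), JUND (-0.67), FOS (-0.38) and, against its sign as deposited, FOSL2 (-0.56) passed the threshold, as did JUNB (-0.45) among the stronger starts and JUND (-0.59) within 2 kb. Without 1 library the log2 change ran from -0.51 to -0.35 for JUNB, -0.85 to -0.50 for JUND, -0.46 to -0.25 for FOSL1, -0.032 to 0.34 for FOSL2 and -0.20 to 0.15 for BATF3. FOSL2 also turned negative within 2 kb (-0.025). BATF3 turned positive with centring (0.26), quantile (0.23) and loess normalization (0.23) and within 2 kb (0.087). JUN, JUNB, JUND, FOS and FOSL1 kept a negative sign in all settings tried, but not the size of the change. The values nearest 0 were -0.15 for JUN, -0.17 for JUNB, -0.38 for JUND, -0.007 for FOS and -0.036 for FOSL1. Per 10000 peaks of the sample, the 9 windows held 6.57 in DMSO and 5.74 in APH, a difference of -0.84, and in the other settings the difference in peaks lay between -1.83 and 1.67.

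No source pairs the samples, and not every sample correlates best with its own number: DMSO 1 correlates best with APH 3. The same-number correlations were -0.01, 0.48 and 0.52 over regions and -0.09, 0.59 and 0.60 over starts. A replicate block moved the calls to 5691 lower and 64 higher of 10813 starts, and 5583 lower and 1021 higher of 50150 regions. JUN (-0.43), JUNB (-0.45), JUND (-0.65), FOS (-0.28) and FOSL1 (-0.32) were past the threshold. With this block, 15 of the 37 AP-1 regions were lower and 0 higher. In the 4 lists, taken in the order above, 9 of 14, 10 of 13, 11 of 17 and 5 of 13 starts were lower, beside 5691 of all 10813. Only MMP10 (0.33) was higher in these lists. With cyclic loess as well, chosen after seeing the data, the replicate block gave 0 starts either way and 687 regions lower and 1149 higher, with BATF3 at 0.23.

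BATF3 had no start value in all 6 samples within 0.5 kb, and JUND, FOS and BATF3 lay below the filter on level, which used the mean value and not its log2. With fewer samples on one side the spread is shared between the conditions. The depth is unknown and limits what the lack of a peak shows.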
